A study of Mus musculus with 8 samples.

Results

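The chemokine genes Ccl24, Ccl8 and Pf4 were followed together with 6 genes by which alternatively activated macrophages are usually recognised, the lectin and scavenger receptor genes Mrc1, Mgl2, Cd163 and Stab1 and the secreted effector genes Retnla and Chil3. These 9 genes, out of 32502 gene names in the tables, were chosen by measured values of these data, namely the higher counts of Ccl24 and Ccl8 in macrophages of mice lacking Acod1, so differences between the genotypes in macrophages are given below as descriptions without a test. The data are Drop-seq libraries, in which each transcript is counted once by its unique molecular identifier (UMI), from the brain of C57BL/6 mice (C57BL/6N in the study's methods) that were wild-type (WT, Irg1/Acod1 +/+) or homozygous for an Irg1/Acod1 knockout allele (KO, Irg1/Acod1 -/-). Each genotype had 1 library from naive brain, whose label names 2 mice, and 1 library from 1 mouse at each of 3 stages after implantation of 500 GL261 glioma cells, with tumours of 5 to 10 mm3 (early), 20 to 25 mm3 (intermediate) and 30 to 35 mm3 (late). GL261 is a mouse glioma line, the knockout allele is constitutive so that every host cell carries it, and the tumour-bearing mice of a stage differed in sex at the early stage (WT female, KO male) and at the intermediate stage (WT male, KO female), so that genotype, sex and library cannot be told apart there.

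Macrophages in tissue take up different states depending on the cytokines around them. Interleukin-4 and interleukin-13 signal through STAT6 and raise a set of genes that includes the mannose receptor Mrc1, the galactose-type lectin Mgl2, the chitinase-like Chil3 and the resistin-like Retnla, while Cd163, Stab1, Pf4 and Mrc1 are also carried by macrophages that live at the borders of the brain, in the meninges and around vessels. CCL24 (eotaxin-2) calls eosinophils through the receptor CCR3, and mouse CCL8 acts on CCR8 and other CC chemokine receptors. Acod1 encodes the enzyme that makes itaconate in activated macrophages. In glioma, microglia and macrophages that arrive from blood are both present, and here the microglia-like cells of tumour-bearing mice are called TAM I and the macrophage-like cells TAM II.

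Positions are from GENCODE M21 on GRCm38. Ccl8 lies on chromosome 11 from 82115185 to 82116799 on the plus strand, in a cluster with Ccl2, Ccl7 and Ccl12, and Ccl12 starts 13.3 kb away. Mgl2, also on chromosome 11 from 70130329 to 70137550, has the similar gene Clec10a from 70156197 to 70170834 beside it. Chil3, on chromosome 3 from 106147554 to 106167564 on the minus strand, neighbours its near copy Chil4, which had no UMI in any table, and reads shared within either pair could be split by the mapping. Ccl24 lies on chromosome 5 from 135569937 to 135573049 on the minus strand and Pf4 on the same chromosome from 90772435 to 90773383. Mrc1 lies on chromosome 2 from 14229392 to 14332057, Cd163 on chromosome 6 from 124304656 to 124330527, Stab1 on chromosome 14 from 31139013 to 31168641 on the minus strand and Retnla on chromosome 16 from 48842551 to 48844461.

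The 250 bases before the start were at hand for 8 of the 9 genes (RefSeq, GRCm38.p6). They were searched on both strands for TTC and GAA with any 4 bases between them, the spacing of half-sites that STAT6 prefers, and for GAGGAA, the core bound by the myeloid factor PU.1, and the 2 motifs can overlap. The STAT6-type motif was present in 5.85% of 32851 promoters and in 1 of the 8, that of Retnla. GAGGAA was present in 23.3% of promoters and in 6 of the 8, Ccl8, Mgl2, Mrc1, Pf4, Retnla and Stab1. Below, Ccl8 and Mrc1 were found together in more cells than expected. Chil3 was found with either of them in fewer cells than expected, and Retnla was not detected in the cells kept. The sequences of Ccl8, Mrc1, Chil3 and Retnla are given 5′ to 3′ with either motif in capitals.
Ccl8, upstream of the start, chr11:82114935-82115184, plus strand: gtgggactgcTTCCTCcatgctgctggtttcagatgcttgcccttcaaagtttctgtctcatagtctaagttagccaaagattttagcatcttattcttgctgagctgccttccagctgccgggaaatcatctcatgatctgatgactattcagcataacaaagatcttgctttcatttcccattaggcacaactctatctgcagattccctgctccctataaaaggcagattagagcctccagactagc
Mrc1, upstream of the start, chr2:14229164-14229413, plus strand: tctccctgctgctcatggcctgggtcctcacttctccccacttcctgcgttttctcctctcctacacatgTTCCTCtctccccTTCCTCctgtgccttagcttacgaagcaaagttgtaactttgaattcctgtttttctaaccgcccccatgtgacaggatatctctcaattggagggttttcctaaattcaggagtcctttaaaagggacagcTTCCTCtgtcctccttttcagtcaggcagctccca
Chil3, upstream of the start, chr3:106167565-106167814, minus strand: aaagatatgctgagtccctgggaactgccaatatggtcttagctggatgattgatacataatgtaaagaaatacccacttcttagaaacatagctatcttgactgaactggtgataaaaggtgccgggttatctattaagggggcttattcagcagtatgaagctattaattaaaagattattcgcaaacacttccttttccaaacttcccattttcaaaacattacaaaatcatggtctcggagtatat
Retnla, upstream of the start, chr16:48842359-48842608, plus strand: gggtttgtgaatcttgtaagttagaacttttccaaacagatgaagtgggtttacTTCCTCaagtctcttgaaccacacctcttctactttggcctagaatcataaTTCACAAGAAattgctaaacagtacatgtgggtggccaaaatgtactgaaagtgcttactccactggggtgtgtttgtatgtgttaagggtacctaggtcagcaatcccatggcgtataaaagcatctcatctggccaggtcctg

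The tables held 3000 barcodes each and 2885345 to 9950713 UMIs per library. Of the 1000 deepest barcodes per library, 5698 cells had at least 1000 genes, and 852 of them fell in 1 myeloid cluster that was divided further into 415 macrophage-like, 377 microglia-like, 26 dendritic cell-like and 34 unnamed cells. All 11 of the 11 macrophage markers and all 11 of the 11 microglia markers were detected in the respective cells, whose leading genes included Arg1, Thbs1 and Tgfbi or Siglech, P2ry12 and Gpr34. Macrophage-like cells numbered 111 in WT early, 72 in KO early, 16 in WT intermediate, 84 in KO intermediate, 21 in WT late and 109 in KO late, with 84952 to 584608 UMIs per library, so WT intermediate and WT late are the shallowest sums and 3 UMIs there amount to 35.3 and 31.9 CPM (a gene's UMIs per 1000000 UMIs of the summed cells). Acod1 itself had 76, 3 and 1 UMIs in TAM II of the WT libraries and 27, 5 and 30 in those labelled KO, in order of stage, and KO late was above WT late (65.5 against 10.6 CPM). The inserted cassette lies inside the gene, and whether the counted tags lie outside it was not tested, so the counts do not check the genotype labels and KO stands here for a library labelled KO. Of all cells kept, 9 carried a barcode found in more than 1 library, and none of these was myeloid. In sums of this kind fewer positive cells and less RNA per cell cannot be told apart, so both the level and the share of positive cells are given.

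Ccl24, the eotaxin-2 gene, was found in few macrophages, 22 of 413 TAM II, and 6 of these 22 cells had at least 10 of its UMIs. TAM II held 0 UMIs in WT early, 157 in KO early, 0 in WT intermediate, 7 in KO intermediate, 1 in WT late and 28 in KO late. The level was 410 CPM (exact 95% Poisson interval 349 to 480) in KO early, 19.1 (7.67 to 39.3) in KO intermediate, 10.6 (0.269 to 59.3) in WT late and 61.1 (40.6 to 88.3) in KO late. The KO early library was at least 80.0-fold above WT early, taking 3 UMIs in that library as the limit of a count of 0. At the intermediate stage the difference was not detectable at this depth, since 0 UMIs in 16 cells allows 35.3 CPM, and at the late stage the log2 ratio of 2.52 had an interval from -0.07 to 7.88. Ccl24 was found in 10 of 72 cells of KO early (13.9%, exact binomial interval 6.87 to 24.1%), in 3 of 84 of KO intermediate, in 1 of 21 of WT late and in 8 of 109 of KO late. A single cell carried 51 of the 157 UMIs of KO early, and without it the library still had 277 CPM. Intervals here and below cover counting error only.

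Ccl8, a monocyte chemoattractant of the CC family, was found in more macrophages than Ccl24. TAM II held 112, 0 and 8 UMIs in the early, intermediate and late WT libraries and 256, 164 and 743 in the corresponding KO libraries. The levels were 192 (158 to 231), 0 and 85.1 (36.7 to 168) CPM in WT and 669 (590 to 757), 447 (381 to 521) and 1622 (1507 to 1742) in KO, so the genotypes did not overlap. KO early was 3.49-fold above WT early and KO late 19.1-fold above WT late, and KO intermediate was at least 12.7-fold above WT intermediate. The share of cells with a UMI differed less at the early stage, with 16 of 111 in WT early (14.4%) and 13 of 72 in KO early (18.1%), intervals of 8.47 to 22.4% and 9.98 to 28.9%. In KO late 46 of 109 cells were positive (42.2%, 32.8 to 52.0%) against 2 of 21 in WT late (9.52%, 1.17 to 30.4%). One cell of KO early held 161 of its 256 UMIs (62.9%), and without the top cell of each library the early levels were 156 CPM in WT and 248 in KO. For comparison, 2 of 188 lymphocyte-like cells (1.06%) had a Ccl8 UMI, at a median depth of 2960 UMIs against 3324 in TAM II.

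Pf4, the platelet factor 4 gene that border macrophages and megakaryocytes express, did not follow the genotype. It had 145, 241 and 69 UMIs in WT early, intermediate and late and 141, 207 and 147 in KO. WT intermediate stood highest with 2837 CPM (2490 to 3219), the other libraries lay between 248 and 734, and 13 of its 16 cells were positive. In WT late 62 of the 69 UMIs came from 1 cell, without which its level was 74.5 CPM.

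Among the receptors, Mrc1, the mannose receptor, lay within a narrow range. It ran from 371 CPM in KO early to 734 in WT late, and 42.9 to 52.4% of TAM II carried a UMI in the 6 libraries. Mrc1 was lower in KO at each stage (371 against 464, 412 against 483 and 539 against 734 CPM), but the groups overlapped. In WT late 1 cell held 49 of 69 Mrc1 UMIs, without which the level was 213. Without the top cell of each library, KO was above WT at the intermediate (357 against 271 CPM) and late stage (506 against 213). At the early stage KO stayed below WT (314 against 380). Mgl2, a galactose-type lectin, had 78, 2 and 0 UMIs in the WT libraries and 121, 102 and 49 in KO, by stage. Its level in KO was above WT at each stage (316 against 133, 278 against 23.5 and 107 against 0 CPM), but WT early exceeded KO late, so the groups overlapped. Stab1, a scavenger receptor of sinusoidal endothelium and macrophages, was lower in KO at each stage, with 108, 235 and 245 CPM in WT and 78.4, 139 and 78.6 in KO. Here too the groups overlapped, and only the late interval of the log2 ratio (-2.43 to -0.82) stayed below 0. Without the top cell of each library the late Stab1 levels were 106 CPM in WT and 69.8 in KO. Cd163, the haemoglobin scavenger receptor, had 1 UMI in all TAM II.

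The secreted effectors were rare. Chil3 had 5, 2 and 5 UMIs in WT and 86, 4 and 26 in KO, and 37 of the 86 in KO early were in 1 cell. KO early, at 225 CPM, was 26.3-fold above WT early, the late libraries were at 53.2 in WT and 56.7 in KO, and the intermediate libraries at 23.5 and 10.9. Retnla had 0 UMIs in the 5698 cells. Over all 8 tables together, the 1000 deepest barcodes per table held 1 Retnla UMI.

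Over 7098 genes with at least 30 UMIs in TAM II, 5.04% were higher in every KO than in every WT library and 4.07% lower in every KO library. Of the 7 members with that many UMIs, Ccl24 and Ccl8 were in the first set, which the choice of the members fixes, and none was in the second. For Ccl24 the intervals of the nearest libraries, WT late and KO intermediate, overlapped. By the share of positive cells Ccl24 did not keep this order, with 4.76% in WT late and 3.57% in KO intermediate at full depth and an expected 2.43% and 1.31% when cells were thinned to 1500 UMIs. By the thinned share Ccl8 and Mgl2 had every KO above every WT library. Leaving out WT early or KO late added Mgl2, leaving out KO intermediate added Chil3, and leaving out 1 library also put Pf4 and Stab1 (without WT early), Stab1 (without KO intermediate) or Mrc1 (without KO late) lower in every KO library. With 1 library fewer, more of all genes did not overlap, from 8.0 to 14.5% higher and from 7.84 to 14.3% lower in every KO library over these 3 settings.

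**Figure D1:**
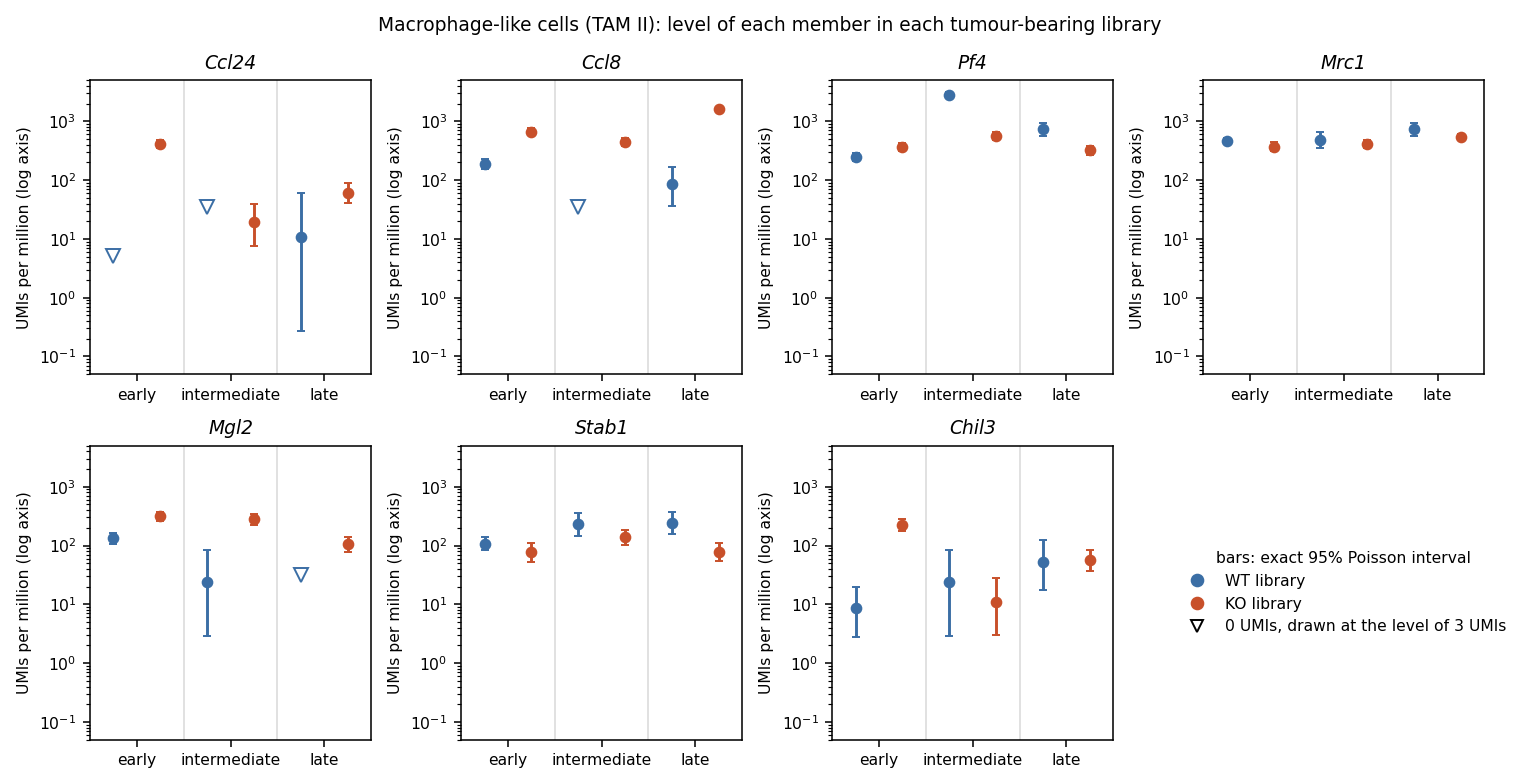
Level of 7 members in macrophage-like cells of the 6 tumour-bearing libraries, in CPM on a log axis, with the exact 95% Poisson interval. Blue points are WT and red points KO libraries, and open triangles mark libraries with 0 UMIs at the level of 3 UMIs. Ccl8 ran from 447 to 1622 in KO and from 0 to 192 in WT, and Mrc1 from 371 to 734 in all 6.

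The members were compared between macrophages and microglia of the same tumours on summed UMIs per library, with the library as a block. In this comparison 698 of 2222 genes passed an adjusted p of 0.05 (31.4%), 16.0% of the genes being higher and 15.4% lower in TAM II. Of the members 4 passed the filter on low counts, Pf4 and Mrc1 through TAM II, and their values follow one by one. Pf4 had 950 UMIs in 413 TAM II and 0 in 178 TAM I, and it was higher in 6 of 6 libraries. That is at least 111-fold higher when 3 UMIs over the group are taken as the limit. Mrc1 had 921 UMIs against 2, a ratio of 161 (44.6 to 1335) that was in the same direction in 6 of 6 libraries. Since Pf4 and Mrc1 passed the filter by their counts in TAM II, their values are descriptions with no test. Stab1 was carried by both classes, at 113 and 110 CPM. Its log2 difference of 0.21 ± 0.26 (SE) did not pass (edgeR quasi-likelihood test, adjusted p = 0.597).

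Ccl8 had 1283 UMIs in TAM II and 39 in TAM I and was higher in TAM II in 5 of 6 libraries, by 2.92 ± 0.67 (SE) on the log2 scale. The KO macrophages on which Ccl8 was chosen are part of this value, so it is a description with no test. In the 3 KO libraries alone the log2 difference was 6.31 ± 0.49 (18.6% of genes called there). In the 3 WT libraries alone it was 0.43 ± 0.60 (15.1% of genes called). Both are descriptions only, since Ccl8 was chosen by comparing KO with WT macrophages. Without WT early Ccl8 no longer passed the filter in the fit over all libraries.

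Ccl24, Mgl2 and Chil3 did not pass the filter on low counts in this fit. Ccl24 had 193 UMIs in TAM II and 3 in TAM I, a ratio of 22.6 (7.60 to 110). Mgl2 had 352 against 0 UMIs, at least 41.1-fold, and Chil3 128 against 0, at least 14.96-fold, with the limit taken over the group. Without the filter, where 6.98% of 19988 genes were called, edgeR placed Mgl2 and Chil3 higher in TAM II. With 0 UMIs of either gene in TAM I, this is a description with no test. No test is given for Ccl24 either, since 192 of its 193 UMIs came from the KO macrophages it was chosen on.

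**Figure D2:**
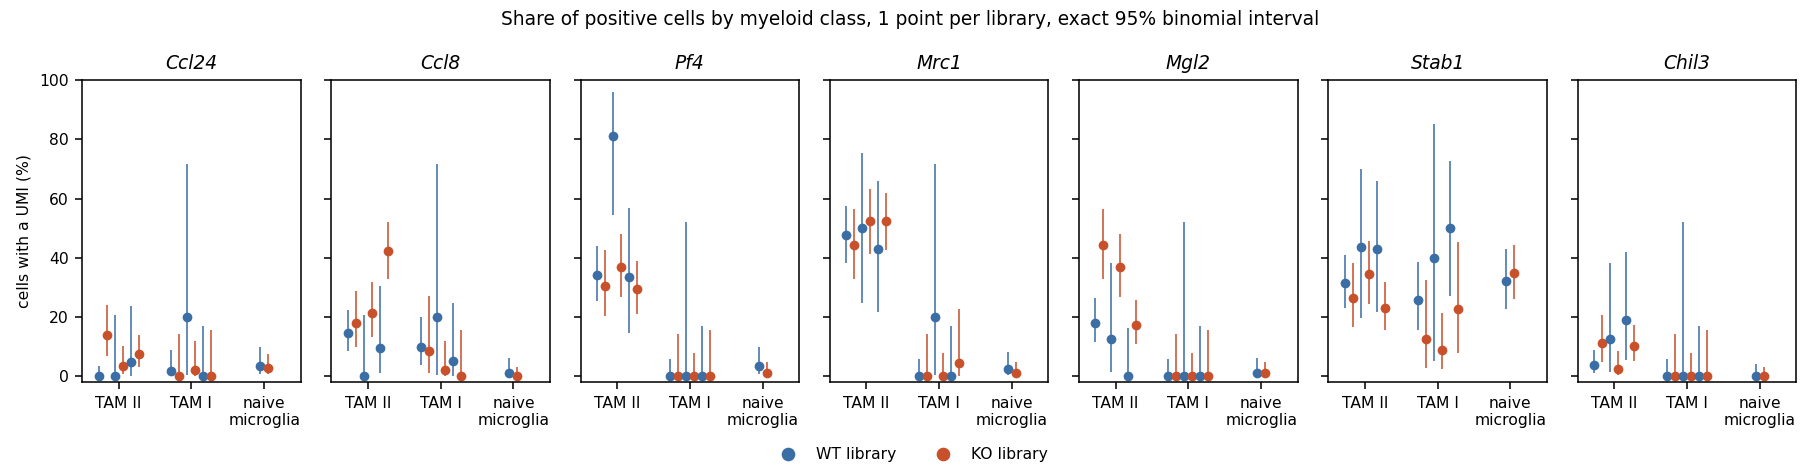
Share of cells with a UMI of each member, in percent, with the exact 95% binomial interval. Each point is 1 library (blue WT, red KO, ordered by stage with WT before KO), for TAM II, TAM I and the microglia-like cells of naive brain. Pf4, Mgl2 and Chil3 were at 0 in TAM I of the 6 libraries, while Stab1 was found in all 3 classes.

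Genes around the members in the same comparison are given by lists. Of 25 genes that respond to interleukin-4 or interleukin-13, 5 were tested and 4 were higher in TAM II, with a median log2 difference of 1.46 over these 5 (0.05 over all genes tested), a description, since Arg1 passed the filter through TAM II. These were Arg1, the arginase of alternative activation, Il1rn, the interleukin-1 receptor antagonist, Klf4 and Tgm2. Arg1 had 800 to 5177 CPM in TAM II libraries and at most 12.3 in TAM I. The list genes, unlike the members, were not left out of the clustering. Arg1, Ccr2, Il1b and Msr1 were also among the markers that named the macrophage-like class, so their differences are descriptions with no test. Of the 5 receptors for CCL24 and CCL8, 3 were tested, and Ccr1 and Ccr2 were higher in TAM II by 5.37 ± 0.41 and 5.07 ± 0.36 on the log2 scale. Ccr3, the receptor of CCL24, had 0 UMIs in TAM II. Of the chemokines beside Ccl8, Ccl7 was higher in TAM II by 1.79 ± 0.23, Ccl12 was lower with a log2 difference of -1.83 ± 0.25, and Ccl2 was at -0.52 ± 0.27 and did not pass. Of the 12 classical activation genes 6 were tested, and Cxcl9, Il1b and Ptgs2 were higher in TAM II while Tnf, named after its value was seen, was lower. Of the 20 genes of resident tissue macrophages 11 were tested, and 3 were higher (Apoe, Ms4a7 and the scavenger receptor Msr1) and 6 lower. Of the 13 genes of interleukin-4, interleukin-13 and interleukin-10 signalling (cytokines, receptors and STATs), 5 were tested and 1 was called, Il10ra, which was lower in TAM II and was named after its value was seen.

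The same lists were read in TAM II by genotype label, again as a description, beside the 5.04% of all genes higher and 4.07% lower in every KO library. Of 16 interleukin-4 and -13 response genes with 30 UMIs, 4 were higher in every KO than in every WT library (Arg1, Tgm2, and, named after their values were seen, Pdcd1lg2 and Egr2) and none was lower. Arg1 was at 850, 800 and 1809 CPM in WT and 5177, 2666 and 3952 in KO by stage. Of 14 resident macrophage genes 2 were higher (Fcgrt and C4b) and 4 lower (Gas6, Maf, Mertk and Apoe) in every KO library, and of these Fcgrt, Gas6, Maf and Mertk were named after their values were seen. Apoe, the apolipoprotein E gene, was at 19562, 29993 and 28181 CPM in WT and 8460, 16273 and 12330 in KO. Neither direction held for any of the 3 chemokine receptor genes, the 3 other chemokines of the Ccl8 cluster, the 8 interleukin signalling genes or the 11 classical activation genes with 30 UMIs.

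In microglia-like cells, tumour-bearing and naive libraries were compared with genotype as a term. Of 3262 genes, 18.8% were called, 10.5% higher and 8.28% lower with tumour, and neither of the 2 members tested was called. The count rests on both naive libraries, being 107 without WT naive and 49 without KO naive against 613. Ccl8 had 12 UMIs in WT naive and 0 in KO naive, and in tumours 30, 3 and 3 in WT and 2, 1 and 0 in KO by stage, a log2 difference of 0.99 ± 0.86 (edgeR, adjusted p = 0.451). Stab1 fell short of the threshold at -0.91 ± 0.39 (edgeR, adjusted p = 0.113, but 0.0387 with doublets removed and 0.0391 without WT late). Beside them the neighbours of Ccl8 were all higher with tumour, Ccl2 by 3.51 ± 0.62, Ccl7 by 4.38 ± 0.96 and Ccl12 by 4.82 ± 0.58 on the log2 scale (edgeR, adjusted p at most 0.00399).

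The 12 naive Ccl8 UMIs were in 1 cell. In all, 4 naive myeloid cells out of 202, 2 from each genotype, had 25 to 29 UMIs of border-associated macrophage markers, and the others had at most 3. One of these cells, in WT naive, had 11 UMIs of Ccl24, 12 of Ccl8, 25 of Pf4, 19 of Mrc1, 9 of Cd163 and 6 of Stab1, together with Lyve1, F13a1 and Ms4a7. The 4 cells held 17 of 20 naive myeloid Ccl24 UMIs (85.0%), 62 of 63 of Pf4, 95 of 98 of Mrc1 and 20 of 20 of Cd163, but 17 of 98 of Stab1 and 1 of 10 of Mgl2. Chil3 and Retnla had 0 UMIs in these cells. Of the 4, 3 had been classed as microglia-like and 1 as macrophage-like. With them left out, Ccl8 was higher in TAM I than in naive microglia by 5.66 ± 1.63 on the log2 scale, with 19.3% of genes called. This is a description, since the cut was chosen after seeing the data and left the naive group at 0 Ccl8 UMIs. The fitted size depends on the prior count.

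KO and WT microglia-like cells were compared with condition as a block. No gene of 2242 was called (0.0%) by edgeR, 88 having an unadjusted p under 0.05, and DESeq2 called 0 with 40 such genes. Stab1 was the only member tested, at -0.89 ± 0.38 on the log2 scale (edgeR, adjusted p = 0.999). Without the filter 8 of 18844 genes were called (0.0425%), Ccl8 among them with a log2 difference of -3.71 ± 0.78 (edgeR, adjusted p = 0.00467). This call was lost without the 4 border-marker cells, where 6 genes were called (0.0319%, adjusted p of Ccl8 = 0.55), and without WT early (adjusted p = 0.0572). In the tumour-bearing libraries alone 1 gene of 1562 was called (0.064%), and it was not a member, while without KO early the count rose from 0 to 17. The KO minus WT difference in Ccl8 was thus below 0 in microglia-like cells at each of the 3 tumour stages and above 0 in macrophage-like cells at each, on counts of at most 30 UMIs in the microglia.

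The members were then read cell by cell in the 413 TAM II. For each of the 21 pairs of 7 members the cells positive for both were set beside the number expected from the shares in each library. All 15 pairs without Chil3 were above expectation and all 6 pairs with Chil3 below it. Ccl24 and Mrc1 were found together in 20 cells against 10.6 expected, Ccl24 and Pf4 in 14 against 6.84, Ccl8 and Pf4 in 50 against 30.3, and Ccl24 and Ccl8 in 9 against 5.92. Of the 22 Ccl24-positive cells 90.9% had Mrc1, 63.6% Pf4, 40.9% Ccl8 and none Chil3. Positive cells were deeper, with a median of 7373 UMIs in Ccl24-positive cells against 3175 in the other cells of the same libraries, and 5145 against 3001 for Ccl8. After thinning each cell to 1500 UMIs, 13 of the 21 pairs remained above expectation, and Ccl8 with Mgl2 (ratio 0.78) and Mgl2 with Stab1 (0.86) fell below. With doublets removed 15 pairs were above expectation.

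**Figure D3:**
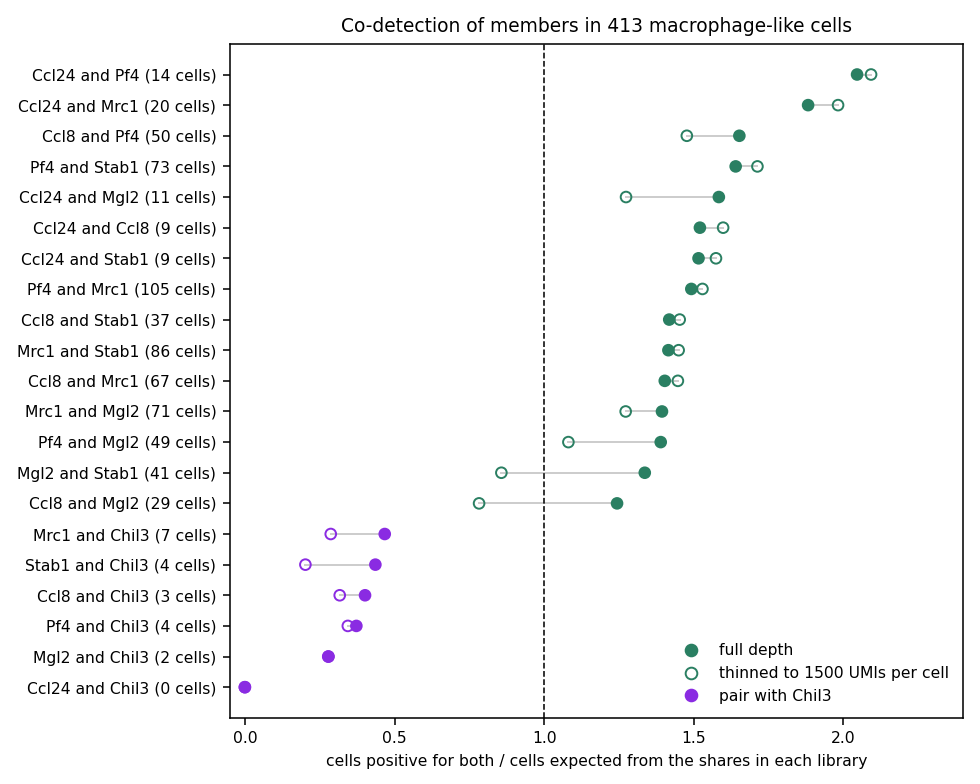
Cells positive for both members of a pair divided by the number expected, for 21 pairs in 413 macrophage-like cells, with the number of such cells at full depth beside each pair. Filled points are full depth and open points 1500 UMIs per cell. Pairs with Chil3, in purple, lie at 0 to 0.47 at full depth, and the other 15 pairs at 1.24 to 2.05.

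The genes most raised in Ccl24-positive over other TAM II were F13a1, the coagulation factor XIII subunit of border macrophages (3.44-fold), Zfp622 (3.06-fold), Ccl2 (3.03-fold), Arg1 (2.85-fold) and Ccl7 (2.84-fold), among 619 genes ranked. Arg1 was found in all 22 cells and F13a1 in 11. These ratios, and those for Ccl8 that follow, pool the cells of the libraries that held a positive cell. They therefore mix differences between libraries with differences between cells. Of the 22 Ccl24-positive cells 10 were from KO early, and of the 95 Ccl8-positive cells 46 were from KO late. In Ccl8-positive cells Il12b led (20.8-fold) but came from 8 of the 95 cells, followed by Enpp2 (4.91-fold, also a leading gene of the choroid plexus cluster), the complement gene C4b (4.60-fold), the adhesion molecule Vcam1 (4.25-fold, in 54 cells) and Mcm6 (3.39-fold), among 2306 genes.

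Dividing TAM II into 7 sub-clusters, without the members, spread the members' UMIs unevenly. The largest, s0, had 96 cells, and its top 10 genes included the monocyte genes Plac8, Ly6c2 and Hp as well as Apod, a leading gene of the oligodendrocyte cluster. It held 41 of 128 Chil3 UMIs (32.0%), 71 of Mgl2, 1 of Ccl24 and 15 of Ccl8. Sub-cluster s1, 77 cells led by Saa3, Areg and Inhba, held 44 UMIs of Chil3 (34.4%), 74 of Mgl2, 1 of Ccl24 and 118 of Ccl8. Sub-cluster s2, 68 cells from all 6 libraries with Spp1, Mmp12 and F13a1 among the top 10 genes, held 59.2% of Pf4 and 34.2% of Ccl24 UMIs. In s5, 35 cells led by the interferon-induced Gbp2b with Vcam1 among the top 10 genes, 29 cells had Ccl8 (82.9%) and together 554 UMIs, 43.2% of all Ccl8. All 35 cells of s5 were from KO libraries and 30 of them from KO late, so this group and that library cannot be told apart. Sub-cluster s4 had 48 KO and 4 WT cells and led with Igfbp7, Mgp and Enpp2, which are also leading genes of the endothelial, tumour cell and choroid plexus clusters, in that order. It held 224 UMIs of Ccl8, 59 of Ccl24 and 32 of Chil3, and the part of other cell types in this was not tested. The cells of s3 were mostly WT early (46 of 57) and held 2.49% of Ccl8 and no Ccl24, and among 28 cycling cells (s6, led by Hist1h1b and Top2a) 1 cell carried all 51 Ccl24 UMIs. Of the 16 WT intermediate and 21 WT late cells, 13 and 17 were in s2, which moves with the high Pf4 of WT intermediate. Within s2 Ccl24 was at 0, 0 and 12.2 CPM in WT and 738, 74.9 and 157 in KO by stage, from 4 to 17 cells per library. Ccl8 there was at 0, 0 and 97.4 in WT and 467, 112 and 1778 in KO. For both genes each KO library was above each WT library, on as few as 9 Ccl8 UMIs in KO intermediate and 8 in WT late. Both were chosen for higher counts in KO macrophages, of which these cells are a part, so this order is a description. The share of all genes with the same order within a sub-cluster was not counted. For Ccl24 no other sub-cluster with WT cells kept this order. Ccl8 did not keep it in s0, s1 and s3. In s0 KO intermediate, like the WT libraries, had no Ccl8 UMI. In s1 Ccl8 was at 283 CPM in WT early against 0 in KO early, 422 in KO intermediate and 209 in KO late, and in s3 at 155 in WT early against 0 in KO early (1 cell) and 25.7 in KO intermediate (10 cells). In s4 Ccl8 kept the order, at 72.2 in WT early (3 cells) and 0 in WT intermediate (1 cell) against 266 to 1223 in the KO libraries. It also did so in s6, at 211 in WT early and at 930 to 5852 in the KO libraries, from 1 to 11 cells.

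**Figure D4:**
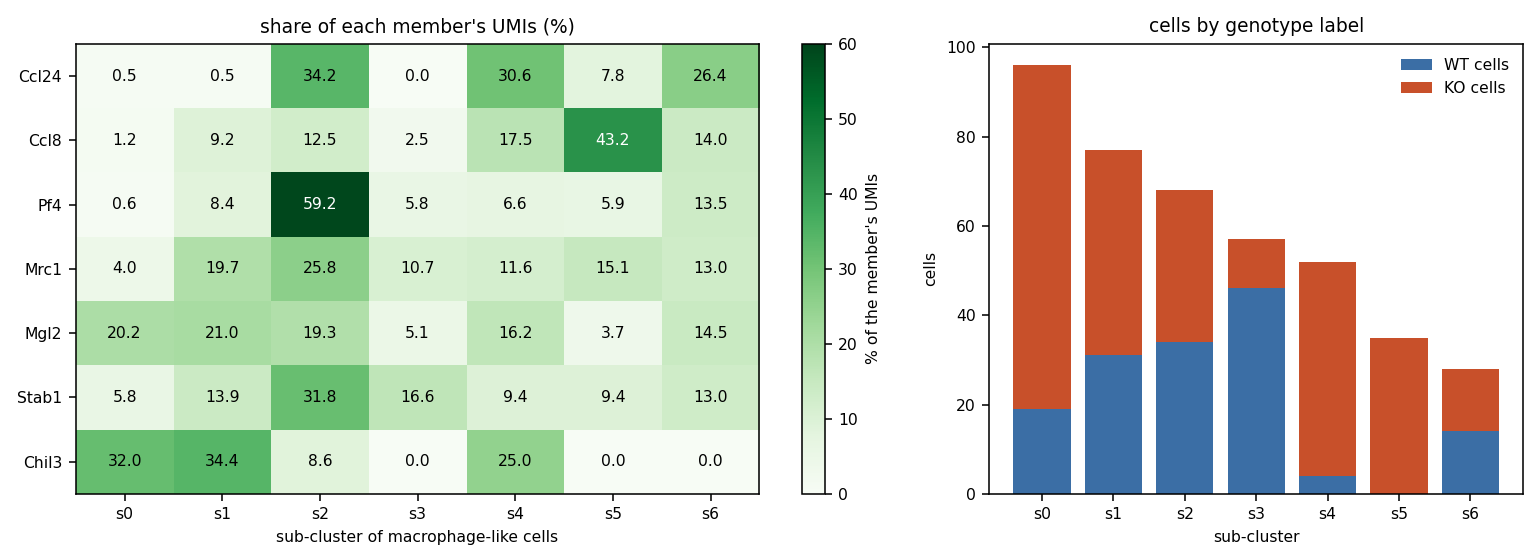
Left, share of each member's UMIs in TAM II that fell in each of 7 sub-clusters, in percent. Right, number of cells in each sub-cluster by genotype label. Pf4 peaked in s2 (59.2%), Ccl8 in s5 (43.2%), which held 35 KO and 0 WT cells, and Chil3 in s0 and s1.

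Outside macrophages and microglia the highest level of Mgl2 was in the 34 unnamed myeloid cells, led by Ccl17, Plet1, Ccr2 and Clec10a, with 54 UMIs in 10 cells (553 CPM). Ccl24 had 4 UMIs in 2 of 26 dendritic cell-like cells. Across all cells, TAM II and the few naive macrophage-like cells held 85.8% of Ccl24, 64.8% of Ccl8, 84.6% of Pf4, 76.6% of Mrc1, 82.9% of Mgl2, 41.2% of Stab1 and 92.8% of Chil3 UMIs. How much of the counts elsewhere came from free RNA or mixed cells was not tested.

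Over the 20 sums of a myeloid class in a library with at least 5 cells, the genes with the pattern most like Ccl24 by log2 of CPM (with 10 added) were Adprm (Pearson r = 0.73), Aktip (0.63), Arfrp1 (0.63), Ppp1r8 (0.63) and Timm22 (0.62). For Ccl8 they were the glutathione transferase Mgst1 (0.89), Fam136a (0.82), Psmg1 (0.81), Tgfb3 (0.78) and the lectin Clec4a1 (0.76), out of 7564 genes. Among the members Mrc1 and Pf4 were closest (0.85), Ccl24 was at 0.50 with Ccl8, at 0.51 with Chil3 (never found in the same cell) and at -0.03 with Mgl2. The 20 sums mix myeloid classes. Over the 6 TAM II sums alone the values were 0.18 for Mrc1 and Pf4, 0.67 for Ccl24 and Ccl8, 0.87 for Ccl24 and Chil3, 0.52 for Ccl24 and Mgl2 and -0.42 for Ccl24 and Mrc1. These values describe sums that share libraries and depth, and carry no test.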

How the data were processed

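Samples were 8 Drop-seq libraries of mouse brain. Per the labels, the authors demultiplexed reads with bcl2fastq 2.0, aligned them with STAR to GRCm38 (mm10) and deposited UMI counts per gene and barcode, 3000 barcodes per table, not normalised. Genes absent from a table were taken as 0. As in the study, the 1000 deepest barcodes of a library were used, a minimum of 1000 genes per cell was set, and genes had to occur in 30 cells or more (members were kept regardless). The 9 members were left out of clustering, which used tSNE (Rtsne 0.17, perplexity 50) and HDBSCAN (scikit-learn 1.9.0, minimum 19 cells, 45 unplaced cells given to the nearest of 11 clusters). Clusters were named from fixed markers that had to be among the leading 10 genes. HDBSCAN joined all myeloid cells, so these, and then the macrophage-like cells, were divided by Leiden clustering (leidenalg 0.10.2, 20 components of 2000 variable genes, resolution 0.8). That step, its resolution among 3 looked at, the sub-clusters, the minimum of 10 border-marker UMIs, the removal of top cells and the unfiltered fits without border cells or WT early were chosen after seeing the data.

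UMIs were summed per library and class with at least 5 cells and tested with edgeR 4.0.16 in R 4.3.3 (quasi-likelihood, TMM, filterByExpr, Benjamini-Hochberg over all genes tested). DESeq2 1.42.0 was an alternative. The fits were tested on simulated data. Intervals are exact Poisson or binomial intervals at 95%, and thinning to 1500 UMIs used the expected share. Doublets were called by Scrublet (scanpy 1.11.5), which marked 59 cells. Since it marked under 0.5% of some libraries, the 5% with the highest score were taken there, 256 cells in all, and they were kept in the analysis except in 1 alternative. Named genes are the members, at most 4 genes with most TAM II UMIs per list, the 5 most alike genes, and the 5 genes with the highest ratio in positive cells. The members and lists were chosen with earlier results of these data known. With 1 library per group, p-values measure the spread between libraries of different conditions. Single values of some genes on the lists are not reported here.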

Additional observations from a re-analysis of the deposited data

Results flagged for a closer look

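In 6 tumour-bearing libraries of TAM II and of TAM I, 12 groups of member levels were examined for a library far from the others. Dixon's criterion was used (gap over range above 0.625), which chance meets in about 1 of 20 groups of normally distributed values. That rate does not apply to low counts, where 1 UMI in 1 library can meet the criterion, as for Cd163 below. Ccl24 was chosen for its counts in KO macrophages, so its entry in TAM II is a description. In TAM II, Ccl24 of KO early stood at 410 CPM and Chil3 of KO early at 225, both above the other 5 libraries. Pf4 of WT intermediate stood at 2837, and Cd163 of KO late at 2.18, which is 1 UMI. In TAM I, Ccl24 and Mrc1 of WT intermediate were each at 57.6 CPM, which is 1 UMI each in 5 cells.

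The KO minus WT difference of Ccl8 was above 0 in macrophage-like cells and below 0 in microglia-like cells at all 3 stages, and the difference between the classes was not tested. In TAM I the levels were 111, 173 and 33.7 CPM in WT and 24.6, 6.61 and 0 in KO, by stage.

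Ccl8 was also counted outside myeloid cells. The endothelial cluster of the tumour-bearing libraries held 96 Ccl8 UMIs in 13 cells, of which 12 had at least 10 UMIs of fibroblast or mural cell markers and none had 10 of macrophage or microglia markers. The tumour cell cluster of KO late held 532 Ccl8 UMIs, 280 of them in 1 cell. All 8 cells of the tumour cell cluster with at least 10 Ccl8 UMIs had at least 10 UMIs of macrophage or microglia markers, and whether these were mixed cells was not tested.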

How the results depend on the processing

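The 3 stages have 1 library per genotype. No paired analysis was possible because each group holds 1 library, so that no replicate numbers can pair samples, while library and condition served as blocks. Without the condition block 0 genes differed between KO and WT microglia-like cells by edgeR, with 22 at an unadjusted p under 0.05. For TAM II against TAM I, 698 genes called became 1396 without the filter, 269 in WT libraries alone, and 450 (without KO intermediate) to 963 when 1 library was left out. For microglia-like cells of tumour-bearing against naive mice, 613 became 49 (without KO naive) to 673. For KO against WT microglia-like cells, 0 became 8 without the filter, 1 with at least 10 cells per sum, 1 in tumour-bearing libraries only, 6 without filter and border-marker cells, 17 without filter and WT early, and 0 to 17 (without KO early) when 1 library was left out. Other counts of calls stayed within 1.5 times. The cause was not tested.

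Directions that turned were not called. Stab1 in TAM II against TAM I was at -0.12 (log2) in WT libraries only (edgeR, adjusted p = 0.879). In KO against WT microglia-like cells the log2 difference turned for Stat3 to 0.025 (Leiden clustering), 0.0078 (500 genes per cell) and 0.032 (tumour-bearing only), for Ccl2 to 0.081 (no filter, border cells out), for Ccl7 to 0.072 and Cxcl10 to -0.15 (10 cells per sum), for Ptgs2 to -0.17 (500 genes per cell) and -0.33 (10 cells per sum), for Ccl12 to -0.017 (tumour-bearing only) and -0.17 (no filter, without WT early), and for Il1b to 0.18 (no filter, without WT early). With 1 library left out the ranges were -0.25 to 2.98 for Il2rg, -0.42 to 0.077 for Stat3, -1.42 to 0.14 for Ccl2, -2.18 to 0.072 for Ccl7, -0.46 to 0.53 for Ccl12, -0.94 to 0.20 for Il1b, -1.03 to 8.48 for Cxcl9, -0.15 to 0.92 for Cxcl10 and -0.37 to 1.11 for Ptgs2. Of the single genes under an alternative, 833 values kept direction and side of the threshold, 21 newly passed it, 22 no longer passed it and 35 turned. Depth limits the WT intermediate and WT late sums, where 3 UMIs are 35.3 and 31.9 CPM.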

Other observations

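Of the 20 resident macrophage genes, 3 picked after their values were seen were highest in the shallow WT intermediate and WT late sums of TAM II. Hmox1, the heme oxygenase gene, was at 706 and 904 CPM there and at 54.9 to 76.4 in the other 4 libraries. Igf1, a growth factor gene, was at 565 and 255 against 15.7 to 49.1, and Slc40a1, the iron exporter ferroportin, at 200.1 and 63.8 against at most 2.18. Of the cells of these sums, 13 of 16 and 17 of 21 were in sub-cluster s2, and the part of that in the result was not tested.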
